A study of Mus musculus with 2 samples.

Results

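The 46 genes described here encode the protein kinases, cyclins, kinetochore proteins, condensin subunits and cytokinesis factors that carry a cell through mitosis. They were taken by symbol from a list of such genes, not by their values, and all 46 had a value in the table of 10982 protein-coding genes. RNA was sequenced from cultures labelled as mouse neonatal cardiomyocytes, the beating muscle cells of the newborn heart. One culture had been transfected with an antagomir, meaning an antisense oligonucleotide modified to block a small RNA, and the other with a negative control. The target was FERPIR (DQ69304), a piRNA, which belongs to the small RNAs that PIWI proteins bind. FERPIR itself has no value in the table. Each group had 1 library. A treatment label reads PBS for both, and the labels do not say how many animals or cultures stand behind a library. The study asked how the expression profile differs after FERPIR knockdown.

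Mitosis is driven by CDK1 bound to A- and B-type cyclins and is ended when the anaphase-promoting complex, a ubiquitin ligase, has these cyclins and securin destroyed. In between, kinetochores bind microtubules, the spindle checkpoint holds back anaphase until all are attached, condensin compacts the chromosomes and a contractile ring divides the cell. Most of these genes are transcribed together late in the cell cycle, and heart muscle cells lose this programme in the first days after birth. Their mRNA therefore serves as a common marker of dividing cells.

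Of the 46 mitotic genes, 45 had higher FPKM in the antagomir library than in the negative control library. The same held for 46.0% of the 10201 genes that reached 1 FPKM in at least 1 library. FPKM is a level per transcript length and per mapped fragments, so it can be compared between genes. Summed over the 46 genes, FPKM was 1451 in the antagomir library and 907 in the negative control library, which is 0.46% of all FPKM in the antagomir library and 0.31% in the negative control library. Their median level was 22.6 FPKM in the antagomir library and 13.2 FPKM in the negative control library. The exception was Foxm1, with 3.19 FPKM in the antagomir library and 8.32 FPKM in the negative control library. Each group had 1 library, so no difference has a replicate check and no test or p-value is possible. Values here describe these libraries only. More dividing cells and more of these mRNAs per dividing cell cannot be told apart in bulk RNA.

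Ratios are given as log2 of (antagomir FPKM + 1) over (negative control FPKM + 1), and folds are on the same scale, which understates the difference of low genes. The median log2 ratio of the mitotic genes was 0.57, with a range from -1.16 to 1.69, against a median of -0.05 over the 10201 genes that reached 1 FPKM in the higher library. All 46 mitotic genes reached 5 FPKM in their higher library. At least 1.5-fold higher in the antagomir library were 22 of the 46 (47.8%), while 10.8% of all genes were, and 1 was at least 1.5-fold lower, while 13.4% of all genes were. At least 2-fold higher were 8, against 2.88% of all genes. These 8 were Pttg1, Cdca3, Birc5, Cdc25c, Cdc20, Spc24, Cdk1 and Bub1b. Foxm1 was the single gene at least 2-fold lower, a class that held 3.79% of all genes. With values rescaled to TPM, which fixes the sum of each library, 1071 of the 10201 genes (10.5%) were at least 1.5-fold higher and 2037 were 1.5-fold lower or more, and 17 mitotic genes were at least 1.5-fold higher. A log2 ratio above 0.61, which about 10% of all genes exceeded, was found for 21 of the 46, led by Pttg1 at rank 33 and Cdca3 at rank 52.

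**Figure D1:**
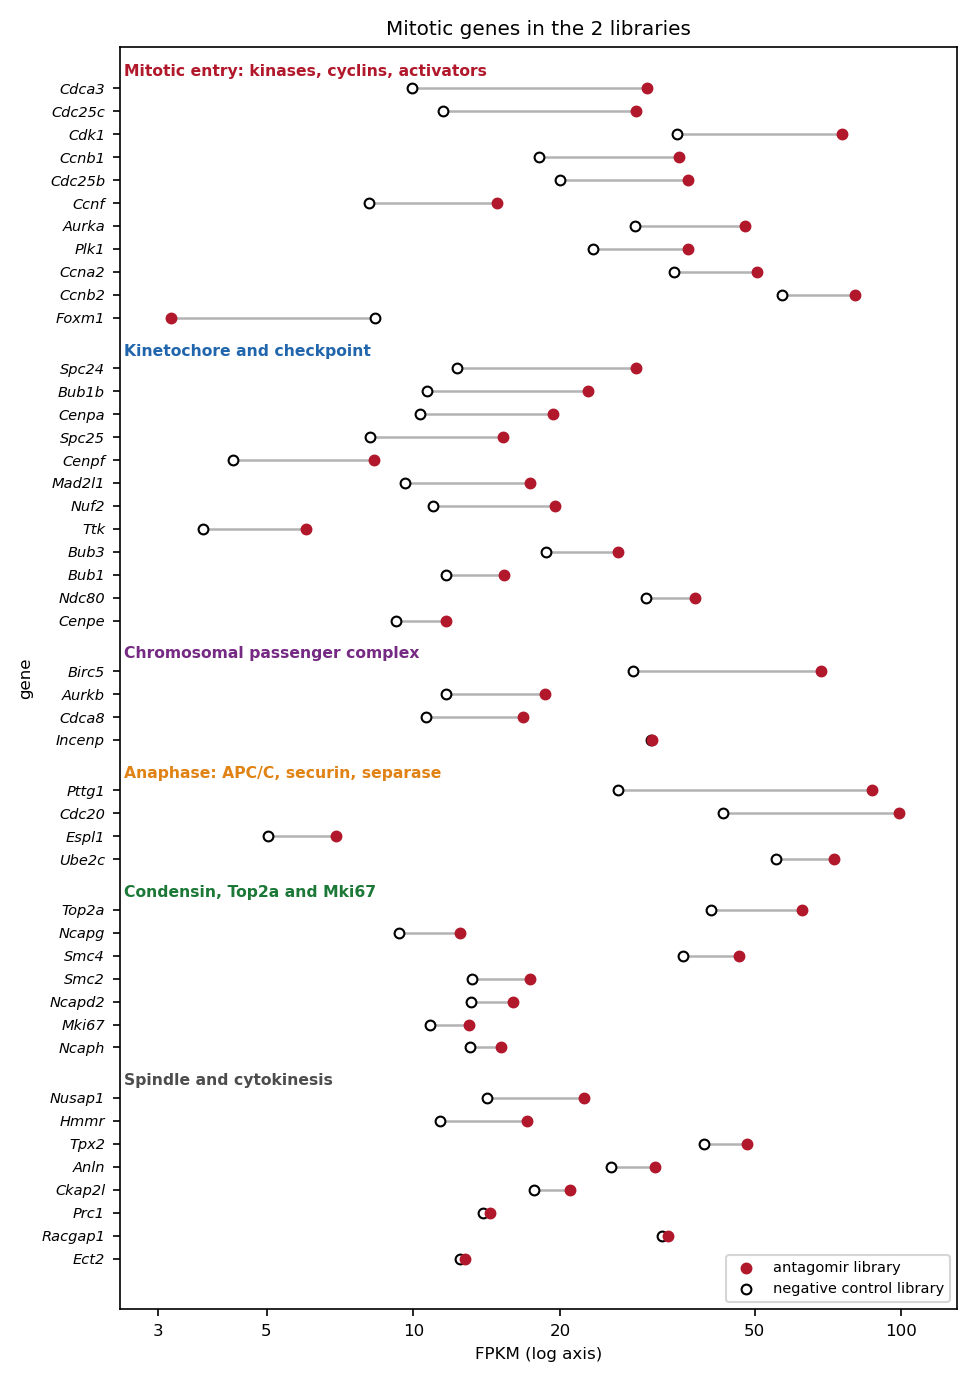
FPKM of the 46 mitotic genes (horizontal log axis, 1 row per gene, grouped by role and ordered by ratio) in the antagomir library (filled circles) and the negative control library (open circles), 1 library each. The filled circle lies to the right for every gene except Foxm1, and the pair nearly coincides for Incenp, Ect2, Racgap1 and Prc1.

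The cell type named by the labels was checked against defining genes. Of 20 cardiomyocyte markers 6 had a value, and their summed level was 53.8 FPKM in the antagomir library and 28.3 FPKM in the negative control library. Of the 6, 5 were higher in the antagomir library and 1 (Nppb) was lower, and the median log2 ratio of the 6 was 0.85. Their log2 ratios ranged from -0.32 for Nppb to 1.89 for Tnnt2. Tnnt2, cardiac troponin T, had 8.19 FPKM in the antagomir library and 1.48 FPKM in the negative control library, and Myh6 and Actc1, the main cardiac myosin and actin genes, had no value. Each gene of this table has more than 0.5 FPKM in its higher library, so a gene without a value may have been under that level in both libraries. Whether that was the reason was not tested. Fibroblast markers had a value for 9 of 14, with a summed level of 4478 FPKM in the antagomir library and 2049 FPKM in the negative control library. Most of that sum was S100a4, with 4125 FPKM in the antagomir library and 1484 FPKM in the negative control library, and 7 of the 9 were lower in the antagomir library, with a median log2 ratio of -0.52. Col1a1, a main fibroblast collagen gene, had 24.2 FPKM in the antagomir library and 58.5 FPKM in the negative control library. Smooth muscle markers had a value for 5 of 8, summing to 1324 FPKM in the antagomir library and 1688 FPKM in the negative control library, with Acta2 at 845 FPKM in the antagomir library and 1304 FPKM in the negative control library. Acta2 made up most of that sum, while 3 of the 5 were higher in the antagomir library and the median log2 ratio was 0.29. Tagln, which encodes the actin-binding protein transgelin, had 37.8 FPKM in the antagomir library and 18.2 FPKM in the negative control library. None of 10 endothelial markers, Pecam1 among them, had a value. Immune markers had a value for 2 of 10, without Ptprc, at a sum of 21.98 FPKM in the antagomir library and 16.9 FPKM in the negative control library. Erythroid markers had a value for 2 of 6, at a sum of 20.8 FPKM in the antagomir library and 14.4 FPKM in the negative control library, including Hba-a1 with 11.5 FPKM in the antagomir library and 10.2 FPKM in the negative control library. The part of cell make-up in the mitotic ratios was not tested, and these values do not say which cells in the cultures held the mitotic mRNA.

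Promoters of late cell cycle genes typically carry CCAAT boxes, bound by the factor NF-Y, and a cell cycle homology region (CHR), the element through which the MuvB complex represses them in resting cells and, joined by B-MYB and FOXM1, activates them in G2. Promoter sequence from RefSeq, build GRCm38.p6, covered 250 bases before to 50 after the start site and was found for 38 of the 46 genes. Those without an entry were Tpx2, Incenp, Cdc25c, Aurkb, Spc24, Foxm1, Smc4 and Ccna2. On either strand, a CCAAT box (CCAAT or ATTGG) was present in 30 of the 38 (78.9%), against 40.1% of the 8535 promoters found for all genes of the table. A CHR (TTTGAA or its complement TTCAAA or the palindrome TTCGAA, it can share 1 end base with a CCAAT box) was also present in 30 of the 38 (78.9%), against 13.8% of all promoters, and 28 held both motifs, against 6.3%. In 28 of the 38 (73.7%) a CHR began within 50 bases of the start site, against 3.4% of all promoters. Among 34 promoters of DNA replication and G1/S genes, which act earlier in the cycle, 19 held a CCAAT box and 8 a CHR. A match describes these letters and does not show a bound site.

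The promoters below are those of the genes at either end of the order of log2 ratios among the 38, 3 from the top and 2 from the bottom, each printed 5′ to 3′ on the gene's strand, so that the elements can be set beside the ratios. Capitals mark CCAAT boxes and CHRs. Pttg1 (log2 ratio 1.69), chr11:43425932-43426231, minus strand, and Birc5 (1.25), chr11:117848987-117849286, plus strand, held neither. Cdca3 (1.51), chr6:124829926-124830225, plus strand, held 3 CCAAT boxes and 1 CHR. Racgap1 (0.04), chr15:99651607-99651906, minus strand, held 1 of each, and Ect2 (0.03), chr3:27153829-27154128, minus strand, held 3 CCAAT boxes and 2 CHRs. The start sites of Pttg1 and Cdca3 in RefSeq lie 270 and 629 bases from the 5′ end of the gene in the deposited table. Both windows lie wholly inside the deposited gene and hold no base before its 5′ end. Other large distances were 2394 bases for Cdca8, 169 for Mad2l1 and 148 for Bub3. All of these genes are counted in the motif numbers, so their motif calls are uncertain to that extent.
Pttg1: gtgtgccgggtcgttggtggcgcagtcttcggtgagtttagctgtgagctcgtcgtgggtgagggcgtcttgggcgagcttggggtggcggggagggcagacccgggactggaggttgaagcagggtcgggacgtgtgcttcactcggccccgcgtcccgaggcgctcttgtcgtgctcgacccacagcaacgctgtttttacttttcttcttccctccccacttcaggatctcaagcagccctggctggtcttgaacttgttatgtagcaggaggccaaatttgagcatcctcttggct
Cdca3: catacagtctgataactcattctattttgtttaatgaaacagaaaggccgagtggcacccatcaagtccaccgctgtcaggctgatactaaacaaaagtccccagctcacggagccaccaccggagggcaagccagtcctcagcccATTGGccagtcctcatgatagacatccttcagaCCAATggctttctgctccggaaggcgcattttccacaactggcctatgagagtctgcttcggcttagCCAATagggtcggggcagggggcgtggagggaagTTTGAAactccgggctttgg
Birc5: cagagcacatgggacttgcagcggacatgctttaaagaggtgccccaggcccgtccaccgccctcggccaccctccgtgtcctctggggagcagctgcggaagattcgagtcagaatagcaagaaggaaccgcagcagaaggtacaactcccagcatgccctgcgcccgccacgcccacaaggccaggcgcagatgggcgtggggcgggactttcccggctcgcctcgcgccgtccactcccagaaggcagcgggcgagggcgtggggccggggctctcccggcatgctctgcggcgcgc
Racgap1: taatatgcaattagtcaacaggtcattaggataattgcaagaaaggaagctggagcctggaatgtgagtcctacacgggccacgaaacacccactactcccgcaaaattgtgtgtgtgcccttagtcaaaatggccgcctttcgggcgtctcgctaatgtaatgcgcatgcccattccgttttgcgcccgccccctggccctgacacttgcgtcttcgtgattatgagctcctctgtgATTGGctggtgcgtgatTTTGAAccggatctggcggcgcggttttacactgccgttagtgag
Ect2: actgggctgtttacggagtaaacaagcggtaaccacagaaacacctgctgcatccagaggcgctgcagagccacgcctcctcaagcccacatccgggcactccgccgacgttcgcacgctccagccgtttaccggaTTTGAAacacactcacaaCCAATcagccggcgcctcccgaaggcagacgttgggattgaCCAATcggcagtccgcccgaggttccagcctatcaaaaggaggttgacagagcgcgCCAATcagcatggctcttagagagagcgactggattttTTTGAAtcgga

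The splits by CHR and by number of CCAAT boxes went in opposite directions, and neither difference was tested. The 30 genes with a CHR had a median log2 ratio of 0.52 (range 0.03 to 1.51), and the 8 without one had 0.78 (range 0.20 to 1.69). At least 1.5-fold higher in the antagomir library were 13 of the 30 and 6 of the 8, against 10.8% of all genes. With 2 or more CCAAT boxes the median was 0.61 over 21 genes, and with fewer it was 0.40 over 17, and 11 of the 21 and 8 of the 17 were at least 1.5-fold higher.

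**Figure D2:**
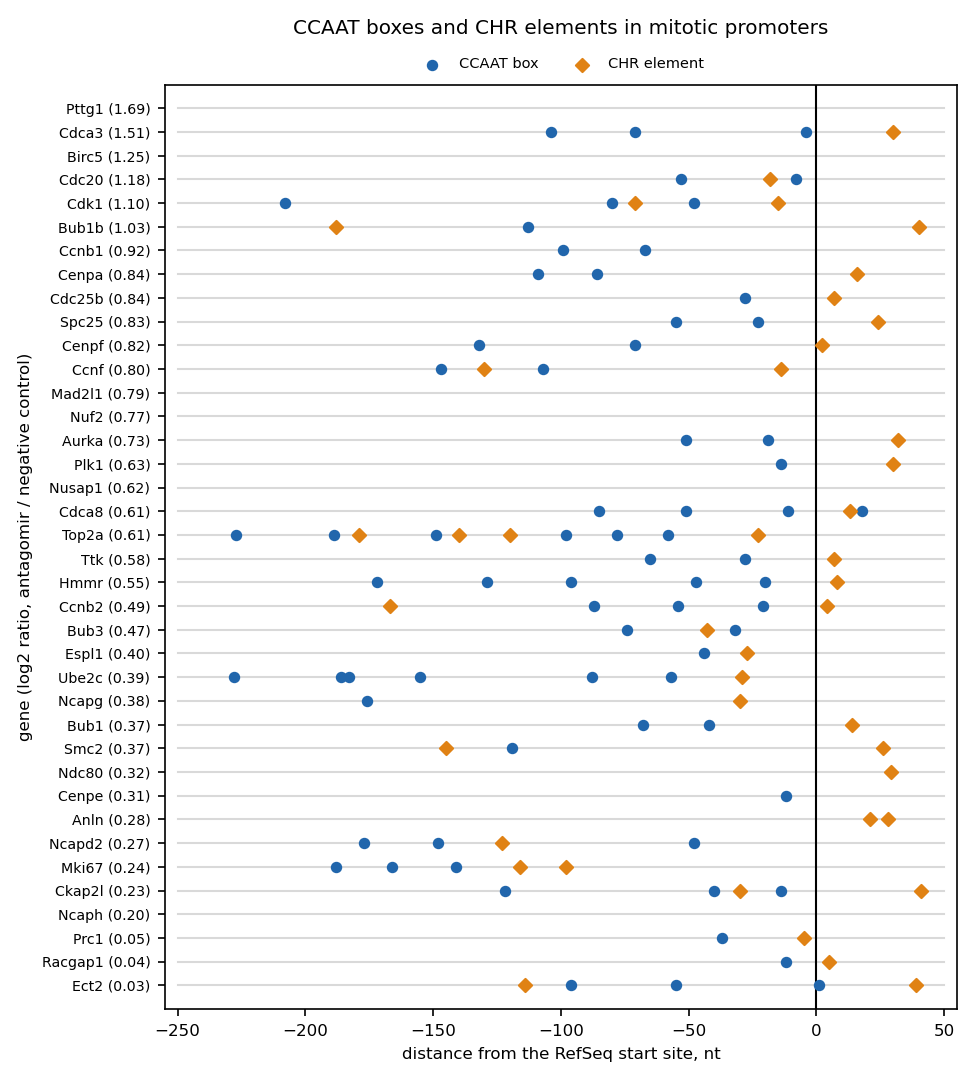
Positions of CCAAT boxes (circles) and CHR elements (diamonds) relative to the RefSeq start site (horizontal axis, nt; vertical line at 0) in the 38 promoters found, ordered from the highest to the lowest log2 ratio, which stands in brackets after each gene. Diamonds gather near the start site in 28 of the 38 rows, at both ends of the order, and rows without any mark include Pttg1 and Birc5 at the top and Ncaph near the bottom.

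The 11 genes of mitotic entry had a median log2 ratio of 0.80. Of the 11, 8 (72.7%) were at least 1.5-fold higher in the antagomir library, against 10.8% of all genes. Cdk1, the kinase that starts mitosis, had 75.7 FPKM in the antagomir library and 34.7 FPKM in the negative control library, 2.15-fold higher. Its cyclin partners differed less. Ccnb1 had 35.0 FPKM in the antagomir library and 18.1 FPKM in the negative control library (1.89-fold higher), Ccnb2 had 80.5 FPKM in the antagomir library and 56.9 FPKM in the negative control library (1.41-fold), and Ccna2 had 50.6 FPKM in the antagomir library and 34.2 FPKM in the negative control library (1.47-fold). The FPKM ratio of Ccnb2 to Ccnb1 was thus 2.30 in the antagomir library and 3.15 in the negative control library. Ccnb1 has 4 pseudogenes at least 95% identical to its mRNA over 300 bases or more, so its reads may be split among copies. The phosphatases that remove the inhibitory phosphates from CDK1 were both higher. Cdc25c had 28.6 FPKM in the antagomir library and 11.5 FPKM in the negative control library (2.37-fold), and Cdc25b had 36.5 FPKM in the antagomir library and 19.96 FPKM in the negative control library (1.79-fold). Cdca3, which helps to degrade the CDK1 inhibitor WEE1, had 30.2 FPKM in the antagomir library and 9.94 FPKM in the negative control library, 2.85-fold higher and the widest gap of the entry genes.

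Of the other entry kinases, Aurka, which matures centrosomes, had 47.9 FPKM in the antagomir library and 28.5 FPKM in the negative control library (1.66-fold higher). Plk1, which activates CDC25 phosphatases and acts at centrosomes and kinetochores, had 36.6 FPKM in the antagomir library and 23.3 FPKM in the negative control library (1.54-fold). Ccnf, the F-box protein cyclin F, had 14.8 FPKM in the antagomir library and 8.11 FPKM in the negative control library (1.74-fold). Foxm1 went the other way by 2.23-fold. It encodes the forkhead factor that activates many late cell cycle genes. Its locus, chr6:128362967-128376146 on build GRCm38, shares exon sequence with Tex52 and Gm44596, neither of which had a value. How far this overlap moves the Foxm1 value was not tested. Foxm1 was lower under each of the 8 alternatives that kept it, and the alternative without genes of overlapping exons dropped it.

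All 12 kinetochore and checkpoint genes were higher in the antagomir library, with a median log2 ratio of 0.78. Of the 12, 7 (58.3%) were at least 1.5-fold higher, against 10.8% of all genes. Among checkpoint genes, Bub1b, which encodes the checkpoint inhibitor BUBR1, had 22.8 FPKM in the antagomir library and 10.7 FPKM in the negative control library (2.04-fold). Mad2l1, encoding the inhibitor MAD2 that binds CDC20, had 17.3 FPKM in the antagomir library and 9.60 FPKM in the negative control library (1.73-fold). The checkpoint genes Bub3 and Bub1 differed less. Bub3 had 26.2 FPKM in the antagomir library and 18.7 FPKM in the negative control library (1.38-fold), and the kinase gene Bub1 had 15.4 FPKM in the antagomir library and 11.7 FPKM in the negative control library (1.29-fold). Ttk, the MPS1 kinase at the top of the checkpoint, was the lowest of these genes, with 6.03 FPKM in the antagomir library and 3.70 FPKM in the negative control library (1.49-fold).

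Subunits of the NDC80 complex, the main microtubule attachment of the kinetochore, form a complex with 1 copy of each of 4 proteins, but their mRNAs differed unequally. Spc24 had 28.6 FPKM in the antagomir library and 12.3 FPKM in the negative control library (2.23-fold higher), and its partner Spc25 had 15.3 FPKM in the antagomir library and 8.16 FPKM in the negative control library (1.78-fold). Nuf2 had 19.5 FPKM in the antagomir library and 11.0 FPKM in the negative control library (1.71-fold). Ndc80, the most abundant of the 4 per length, had 37.7 FPKM in the antagomir library and 30.0 FPKM in the negative control library (1.25-fold). The ratio of Spc24 to Ndc80 was 0.76 in the antagomir library and 0.41 in the negative control library. With the median of genes of like transcript length subtracted, the differences were closer and in another order. Spc24 was then 2.04-fold, Nuf2 1.85-fold, Spc25 1.63-fold and Ndc80 1.35-fold higher. At the centromere, Cenpa, the histone variant that marks it, had 19.3 FPKM in the antagomir library and 10.3 FPKM in the negative control library (1.79-fold). Cenpf, a large outer kinetochore protein, had 8.29 FPKM in the antagomir library and 4.27 FPKM in the negative control library (1.76-fold). Cenpe, a kinesin that moves chromosomes to the spindle equator, had 11.6 FPKM in the antagomir library and 9.19 FPKM in the negative control library (1.24-fold), the smallest ratio of the 12.

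The chromosomal passenger complex corrects faulty attachments and later directs cleavage, and it joins 4 proteins. Birc5, which encodes its subunit survivin, had 68.5 FPKM in the antagomir library and 28.2 FPKM in the negative control library, 2.38-fold higher. Aurkb, its kinase, had 18.6 FPKM in the antagomir library and 11.7 FPKM in the negative control library (1.55-fold), and Cdca8, the subunit borealin, had 16.7 FPKM in the antagomir library and 10.6 FPKM in the negative control library (1.53-fold). Incenp, the scaffold that holds the others, had 30.9 FPKM in the antagomir library and 30.7 FPKM in the negative control library, a log2 ratio of 0.01. The scaffold was thus the most abundant of the 4 per length in the negative control library, and Birc5 in the antagomir library, with a Birc5 to Incenp ratio of 2.22 in the antagomir library and 0.92 in the negative control library.

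Genes that trigger anaphase held the widest difference of the set. Pttg1 (chr11:43420250-43426251, minus strand, GRCm38), which encodes securin, the inhibitor of separase, had 86.9 FPKM in the antagomir library and 26.2 FPKM in the negative control library, 3.23-fold higher. Espl1, which encodes separase itself, the protease that cuts cohesin, had 6.93 FPKM in the antagomir library and 5.03 FPKM in the negative control library (1.32-fold). The inhibitor's mRNA exceeded that of its target 12.5-fold in the antagomir library and 5.22-fold in the negative control library, per length. Cdc20, the mitotic activator of the anaphase-promoting complex, had 99.0 FPKM in the antagomir library and 43.1 FPKM in the negative control library (2.26-fold), the highest level of all 46 genes in the antagomir library. Ube2c, the ubiquitin-conjugating enzyme of that complex, had 72.8 FPKM in the antagomir library and 55.4 FPKM in the negative control library (1.31-fold).

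Condensin subunits lay close together, with log2 ratios between 0.20 and 0.38. Smc2 and Smc4, the ATPase arms, were each 1.29-fold higher, with 17.3 FPKM in the antagomir library and 13.2 FPKM in the negative control library for Smc2, and 46.5 FPKM in the antagomir library and 35.7 FPKM in the negative control library for Smc4. The condensin I subunits Ncapg (12.4 FPKM in the antagomir library and 9.34 FPKM in the negative control library), Ncapd2 (16.0 FPKM in the antagomir library and 13.1 FPKM in the negative control library) and Ncaph (15.1 FPKM in the antagomir library and 13.1 FPKM in the negative control library) were 1.299-fold, 1.204-fold and 1.15-fold higher. None of the 5 reached 1.5-fold. Top2a, the topoisomerase that untangles sister chromatids, did, with 62.6 FPKM in the antagomir library and 40.7 FPKM in the negative control library (1.52-fold). Mki67, which encodes the proliferation marker Ki-67 that coats mitotic chromosomes, had 13.0 FPKM in the antagomir library and 10.8 FPKM in the negative control library (1.18-fold). Ckap2l, Ncaph, Prc1, Racgap1, Ect2, Incenp and Foxm1 had lower ratios than Mki67, and the rest of the set had higher ones.

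The 8 spindle and cytokinesis genes had the lowest group median, a log2 ratio of 0.26. Of these, 1 (12.5%) was at least 1.5-fold higher, against 10.8% of all genes. That gene was Nusap1, a microtubule-bundling protein, with 22.3 FPKM in the antagomir library and 14.2 FPKM in the negative control library (1.54-fold). Hmmr, a spindle pole protein, had 17.1 FPKM in the antagomir library and 11.3 FPKM in the negative control library (1.46-fold). Tpx2, the activator of Aurora A on the spindle, had 48.3 FPKM in the antagomir library and 39.3 FPKM in the negative control library (1.22-fold). Anln, the ring protein anillin, had 31.2 FPKM in the antagomir library and 25.5 FPKM in the negative control library (1.22-fold), and Ckap2l, a spindle protein, had 20.9 FPKM in the antagomir library and 17.6 FPKM in the negative control library (1.18-fold). Of the genes that act at the central spindle and cleavage furrow, Ect2, Racgap1 and Prc1 were nearly level. Ect2, the exchange factor that activates RhoA at the furrow, had 12.8 FPKM in the antagomir library and 12.5 FPKM in the negative control library. Its activator Racgap1 had 33.3 FPKM in the antagomir library and 32.3 FPKM in the negative control library, and Prc1, which bundles the central spindle, had 14.4 FPKM in the antagomir library and 13.9 FPKM in the negative control library. These 3 and Incenp, which acts with them at the central spindle, had log2 ratios from 0.01 to 0.05 and turned negative under 2 rescalings.

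**Figure D3:**
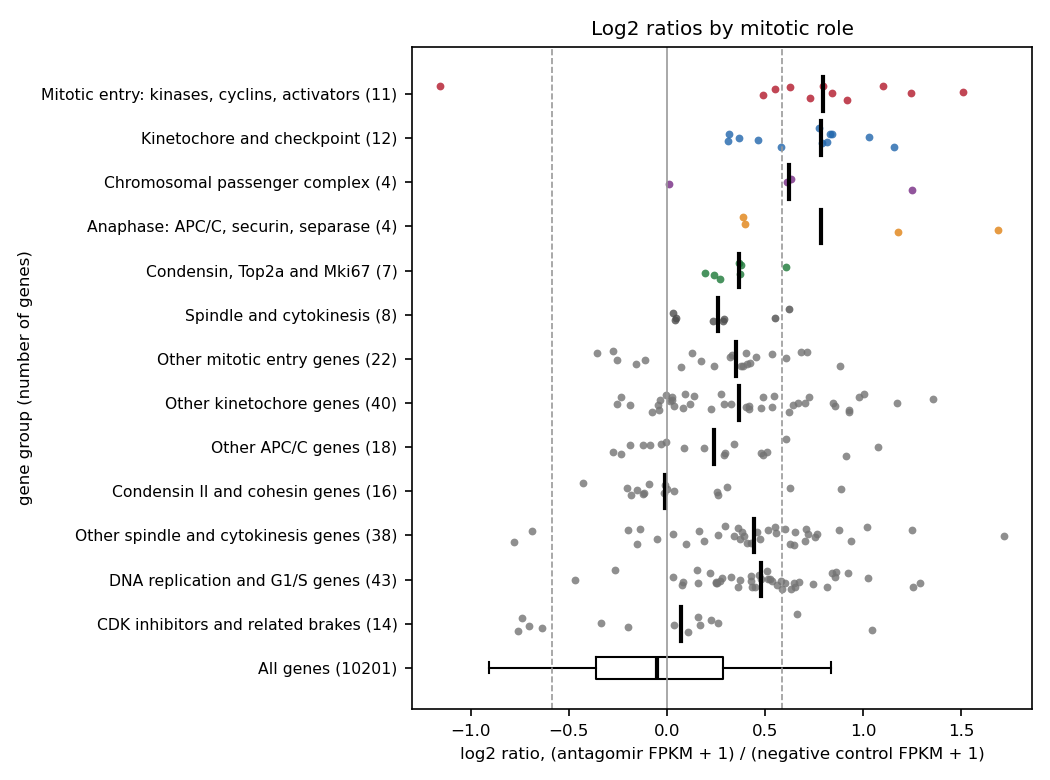
Log2 ratio of antagomir over negative control, on FPKM + 1 (horizontal axis), of the 46 mitotic genes in 6 roles (coloured), of related gene groups (grey points) and of all 10201 genes (box: quartiles, whiskers: 5th to 95th percentile), each with its median (thick line) and number of genes. Dashed lines mark 1.5-fold; entry and kinetochore genes centre near 0.80 and 0.78, the chromosome group at 0.37 and the spindle and cytokinesis group at 0.26.

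Other genes of the same steps, listed by function, had smaller medians than the mitotic set in each step except spindle and cytokinesis. Among 40 further kinetochore genes 13 (32.5%) were at least 1.5-fold higher in the antagomir library, against 10.8% of all genes. None was 1.5-fold lower, against 13.4% of all genes. The median log2 ratio of the 40 was 0.37. At least 2-fold higher were Cenpw (16.6 FPKM in the antagomir library and 5.87 FPKM in the negative control library), Mis18a, which helps to load CENP-A (13.4 FPKM in the antagomir library and 5.37 FPKM in the negative control library), and Cenpm (89.3 FPKM in the antagomir library and 43.9 FPKM in the negative control library). Among 38 further spindle and cytokinesis genes, mitotic kinesins included, 14 (36.8%) were at least 1.5-fold higher, against 10.8% of all genes. At least 1.5-fold lower were 2 (Numa1 and Pdcd6ip), against 13.4% of all genes. The median of the 38 was 0.44. Cep55, the midbody protein of the final cut, had 22.1 FPKM in the antagomir library and 6.02 FPKM in the negative control library, 3.29-fold higher. Fam83d, a spindle protein, was 2.38-fold higher and the kinesin Kif20a, whose exons overlap Cdc23, 2.03-fold. Above 0 lay 32 of these 38 genes and below 0 lay 6. Kif23 and Pdcd6ip, given next, were chosen after their values were seen. Kif23, which encodes the motor subunit that forms centralspindlin with the Racgap1 product, had 8.64 FPKM in the antagomir library and 4.03 FPKM in the negative control library, 1.92-fold higher. Pdcd6ip, which encodes the abscission factor ALIX, had 16.6 FPKM in the antagomir library and 29.2 FPKM in the negative control library, 1.72-fold lower. The 22 further entry genes with a value had a median of 0.35. At least 1.5-fold higher were 4 (18.2%, Cdc25a, Cks2, Bora and Pbk), against 10.8% of all genes. Wee1, the kinase that restrains CDK1, had 11.6 FPKM in the antagomir library and 8.70 FPKM in the negative control library. Ccnb3 had no value. Of 18 genes of the anaphase-promoting complex and its partners 3 (16.7%) were at least 1.5-fold higher (Anapc11, Anapc13 and Cdc26), against 10.8% of all genes. Their median was 0.24 over the 18. The small subunit gene Anapc11 had 39.1 FPKM in the antagomir library and 18.0 FPKM in the negative control library. Genes of condensin II, of cohesin and its regulators, and Top2b, with cohesin needed throughout the cycle, had a median of -0.01 over 16 genes. Ncapg2 and Cdca5 (12.5% of the 16) were at least 1.5-fold higher, against 10.8% of all genes.

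DNA replication and G1/S genes, the group most like the mitotic set, gave 0.48 as the median log2 ratio of 43 genes. At least 1.5-fold higher were 15 (34.9%), against 10.8% of all genes, and none was 1.5-fold lower, against 13.4%. Above 0 lay 41 (95.3%), against 46.0% of all genes. Whether the mitotic and replication genes differ was not tested. Tk1 and Gins2, both with exons overlapping another gene, were 2.39-fold and 2.45-fold higher. CDK inhibitors and related brakes had a median of 0.07 over 14 genes with a value. At least 1.5-fold higher were 2 (14.3%, Cdkn2c and Cdkn2d), against 10.8% of all genes. At least 1.5-fold lower were 4 (Cdkn1b, Btg1, Btg2 and Trp53), against 13.4% of all genes. Cdkn1a, the p53-induced inhibitor p21, had 122 FPKM in the antagomir library and 140.0 FPKM in the negative control library. Cdkn1b, the inhibitor p27 of resting cells, had 9.67 FPKM in the antagomir library and 15.6 FPKM in the negative control library, 1.56-fold lower, while Cdkn2d, an inhibitor of CDK4 and CDK6, was 2.07-fold higher.

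Longer transcripts had lower log2 ratios across the table and also within the mitotic set. Spearman's rho with the longest annotated transcript was -0.30 over 10197 genes and -0.45 over the 46 mitotic genes, given as descriptions. The 23 mitotic genes with the shorter transcripts, up to 3645 nt, had a median log2 ratio of 0.63, and 14 of them were at least 1.5-fold higher, while the 23 with the longer ones had 0.38 and 8. Over all genes the median fell from 0.26 in the fifth with the shortest transcripts to -0.20 in the fifth with the longest. The share of all genes at least 1.5-fold higher, 10.8% over all lengths, was not computed by length. Pttg1, Spc24 and Cdc20 have transcripts of 1674, 1696 and 1793 nt, whereas Cenpf, at 11130 nt, still had a log2 ratio of 0.82. With the median of genes of like length subtracted, the mitotic median was 0.57. At least 1.5-fold higher were then 21 mitotic genes, against 8.17% of all genes, and at least 2-fold higher 9, against 1.72%. Pttg1 was then 2.95-fold and Cdca3 2.74-fold higher, and the condensin and chromosome group had a median log2 ratio of 0.48.

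**Figure D4:**
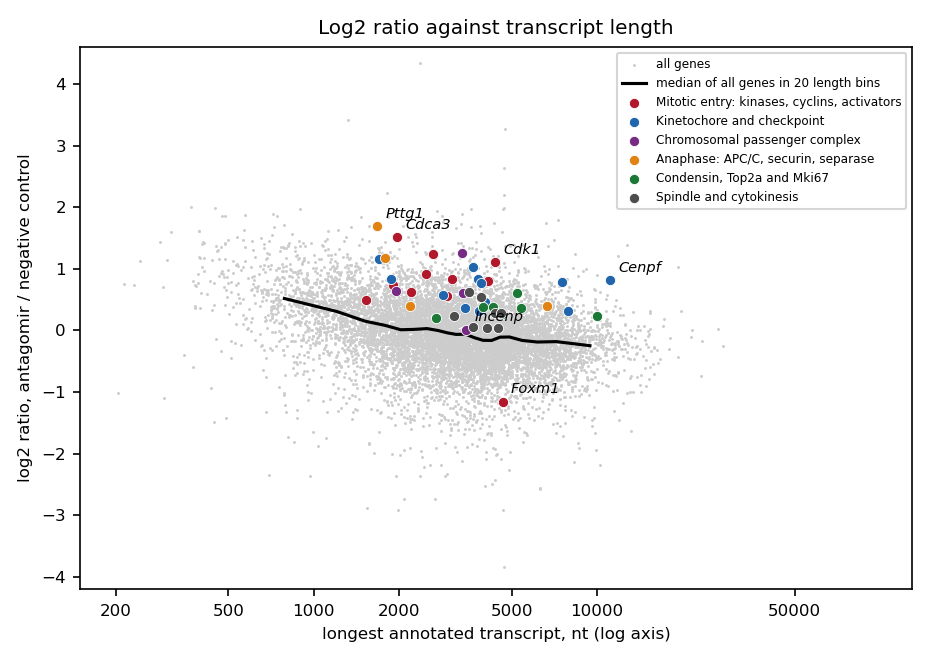
Log2 ratio of antagomir over negative control (vertical axis) against the longest annotated transcript in nt (horizontal log axis) for all genes (grey), with the median of all genes in 20 length bins (black line) and the 46 mitotic genes coloured by role. Mitotic genes lie above the black line along its whole course except Foxm1, which lies well below it at a log2 ratio of -1.16.

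Exons of 15 of the 46 genes overlap those of another annotated gene, in 10 cases a protein-coding one, and the sources used here do not say whether counting used strand. Among them are Cdc20 with Elovl1, Ccna2 with Exosc9, Nusap1 with Oip5, Ube2c with Tnnc2, Prc1 with Rccd1 and Cdc25b with Spef1. Cdc25c with Gm3550, Cdca8 with 9930104L06Rik and Ncapg with Lcorl also belong here, and the values of all these genes are uncertain to that extent. Parts of the Mad2l1, Racgap1 and Ndc80 transcripts, over 454, 488 and 303 bases, match another transcript or a pseudogene at 95% identity or more. Their values are uncertain too. The 31 genes without exon overlap were all higher in the antagomir library, with a median log2 ratio of 0.55. Of the 31, 14 were at least 1.5-fold higher, against 11.3% of the 6358 genes of the table without overlap. Read numbers behind the FPKM values are unknown, and intervals for counting error could not be computed.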

How the data were processed

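RNA was measured in 2 libraries, 1 per group, assigned by sample titles. Per the labels' protocols, polyadenylated RNA was made into libraries with a KAPA stranded kit, although adaptor ligation to both RNA ends is also listed there. The authors deposited FPKM per gene. The submitters' processing notes name cutadapt, HISAT2, StringTie 1.3.3 and build GRCm38, and the sources used here do not give settings, annotation release or strand use. FPKM of the 10 symbols on more than 1 line were summed. Low values times transcript length were searched for steps of whole reads: at best 17.2% (antagomir) and 18.0% (negative control) lay within 0.05 of a whole step, so depth is unknown.

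Log2 ratios used a pseudocount of 1 FPKM. Counts at 1.5-fold and 2-fold took genes with at least 1 FPKM in 1 library. Transcript lengths and exon overlaps came from GENCODE M21 (10987 of 10992 gene identifiers matched), and near copies were sought by aligning transcripts with blastn. The length trend was the median of 20 equal bins. Where a gene has several RefSeq start sites, the one nearest the deposited 5′ end was used. Counting at 2-fold and trend removal were tested on simulated data with shifts larger than 2-fold and control values of at least 5 FPKM. Counts at 1.5-fold were not tested in that way. Every mitotic gene is named; of related lists, genes reaching 5 FPKM with a 2-fold difference, and Cdkn1a, Cdkn1b, Wee1 and Ccnb3; of markers, the defining ones. S100a4, Tagln, Kif23 and Pdcd6ip were chosen after their values were seen. Where a small count is given, its genes are named in the same way. Genes and lists were chosen with earlier results of these data known. Python 3.11.15, pandas 2.3.3, numpy 2.4.6 and matplotlib 3.10.9 were used.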

Additional observations from a re-analysis of the deposited data

How the results depend on the processing

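With 1 library per group nothing here has a replicate check, and no library could be left out. The median log2 ratio of the mitotic genes stayed between 0.52 and 0.61 under the 9 alternatives: pseudocounts of 0.1 and 0.01 FPKM, a minimum of 5 FPKM or none, rescaling to TPM or without the hemoglobin, ribosomal protein and mitochondrially encoded families, centring, removal of the length trend, and leaving out genes with overlapping exons. The number at least 1.5-fold higher ranged from 17 (TPM) to 25 (centred) of 46. The share of all genes was 10.5% as TPM and 12.3% when centred. With pseudocounts of 0.1 and 0.01 it was 14.1% and 14.5%, with 24 mitotic genes in each. Without genes of overlapping exons the mitotic number was 14, and the number at least 1.5-fold lower was 0, over the 31 genes that were left. That alternative also moved the median of the entry group to 0.92 and of the anaphase group to 1.04, both by dropping genes. Removal of the length trend moved the median of the condensin and chromosome group to 0.48. The number at least 2-fold higher ranged from 7 to 9 of 46, and it was 6 of the 31 genes without overlapping exons. Over all genes, 294 were at least 2-fold higher and 387 lower, against 492 and 635 with a pseudocount of 0.1, 524 and 676 with 0.01, 175 higher with the trend removed and 692 lower as TPM. Of the 6358 genes without overlap, 721 were at least 1.5-fold higher, 880 lower and 186 at least 2-fold higher. Incenp, Prc1, Ect2 and Racgap1 were below 0 as TPM and after rescaling without those families, where 41 of 46 genes stayed above 0. No paired analysis was possible because each group has 1 library. Read depth, and with it the counting error of low genes such as Ttk and Foxm1, is unknown.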
